A study of Mus musculus with 15 samples.

Results

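The 10 genes described here build the contractile filaments of podocytes: the nonmuscle myosin II heavy chains Myh9 and Myh10, the myosin light chains Myl6, Myl9, Myl12a and Myl12b, and the tropomyosins Tpm1, Tpm2, Tpm3 and Tpm4. They were chosen by name, and their symbols matched 11 of the 55416 gene identifiers in the count table and 99 of the 140789 transcripts in the transcript table. The additional identifier carries the symbol Myl12b but is a locus whose transcripts begin at Myl12a and end in Myl12b, and it is called the Myl12a-Myl12b read-through. All 15 samples were poly(A) RNA of SVI cells, a line of immortalised mouse podocytes, which in the kidney cover the outside of the glomerular filter. Differentiated cells on flexible silicone membranes were stretched or left at rest, as a model of glomerular hypertension. Experiment 1 had 6 low-stretch samples, with a membrane deflection of 5 to 6 mm in the labels, and 3 unstretched samples. Experiment 2 had 3 high-stretch samples, with a deflection of 7 to 8 mm, and 3 unstretched samples. All groups are the same immortalised line in culture, and the labels name no genotype or drug that differs between them.

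Myosin II is a motor made of a pair of heavy chains, each carrying an essential light chain such as the product of Myl6 and a regulatory light chain such as the product of Myl9, Myl12a or Myl12b. Phosphorylation of the regulatory light chain switches the motor on, and the filaments it forms pull on actin in stress fibres and in the foot processes of podocytes. Tropomyosins are coiled coils that lie along actin filaments and set which myosins and other proteins bind them, and each tropomyosin gene makes several proteins through alternative starts and alternative exons.

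The alternative ends of Myl6 and the alternative second exons of Tpm1 are shown first, since their shares are described in each sample further on. Myl6 has an optional exon of 45 bases, and it carries the stop codon. When it is skipped, the protein ends on the next exon, so that both forms have 151 residues and differ only at the tail. The last 29 coding bases of each form follow, with the bases that differ in capitals (14 of 29). They come from GENCODE M21 transcripts on the minus strand of GRCm38, at chr10:128491736-128491764 (ENSMUST00000218127) and chr10:128491005-128491033 (ENSMUST00000164181).
Myl6 end with the optional exon: CATttgtGAggCATAtCctgTCGggGtga
Myl6 end without the optional exon: AGCttgtCCggATGGtGctgAATggCtga
Of the last 9 amino acids that these ends encode, 5 differ.

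Tpm1 transcripts that begin at the first promoter take either exon 2a or exon 2b, and 1 annotated transcript that holds both was left out of this comparison. Each is 126 bases long and encodes a stretch near the amino terminus of the coiled coil. Exon 2a is known as the choice of smooth muscle and exon 2b as that of most other cells. Exon 2a lies at chr9:67048124-67048249 and exon 2b at chr9:67047786-67047911, both on the minus strand of GRCm38, and the capitals mark the 66 bases that differ.
Tpm1 exon 2a: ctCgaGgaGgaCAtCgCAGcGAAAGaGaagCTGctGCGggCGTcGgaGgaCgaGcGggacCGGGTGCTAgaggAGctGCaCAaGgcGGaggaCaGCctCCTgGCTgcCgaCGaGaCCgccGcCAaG
Tpm1 exon 2b: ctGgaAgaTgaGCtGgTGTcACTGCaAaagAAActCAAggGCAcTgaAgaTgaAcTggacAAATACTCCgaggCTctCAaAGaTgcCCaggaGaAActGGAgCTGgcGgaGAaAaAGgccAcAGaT
The differences are spread over the whole exon, and 28 of the 42 encoded amino acids are different.

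Total counts per sample ranged from 172.2 to 396.7 megacounts. Gene levels are given as CPM (counts scaled to library size with edgeR's TMM factors), and transcript levels as the deposited TPM, which is scaled to transcript length. The labels do not say whether samples of a group were separate cultures, so p-values measure only the spread between these samples. Unstretched replicate 3 of experiment 2 stood apart from the other unstretched samples of its group, with a score of 31.7 on the first principal component against 122 and 163. Of 10 podocyte markers, 4 or 5 reached a mean of 1 CPM in each group, with a summed level of 622 to 1041 CPM over all samples. Nphs1, a defining gene of the slit diaphragm of mature podocytes, had a mean below 1 CPM in every group. Endothelial markers summed to at most 0.269 CPM. Smooth muscle and mesangial markers summed to 1604 to 11921 CPM over all samples, most of it Acta2, while the smooth muscle myosin Myh11 had a mean of at most 0.332 CPM. Tubule markers summed to 244 to 1076 CPM, with 1 of 5 at a mean of 1 CPM or more in each group. Since these are bulk samples, fewer cells of a type and less RNA per cell cannot be told apart.

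Compared per length, Myl6 was the most abundant of the 11 identifiers in every group, with a summed transcript level of 4621 ± 373 TPM (SD, n = 3) in the unstretched cells of experiment 1. Tpm1 followed with 1875 ± 190 TPM (SD, n = 3) and overlapped the read-through locus at 1581 ± 168 TPM (SD, n = 3). Myl12a (926 ± 110), Tpm4 (648 ± 94.1), Myl12b (587 ± 23.4), Tpm3 (292 ± 23.6) and Myh9 (254 ± 20.8) came next. Among these, Tpm4 overlapped Myl12b and Tpm3 overlapped Myh9. Myh10 (88.1 ± 5.6 TPM), Tpm2 (58.3 ± 2.51 TPM) and Myl9 (50.8 ± 7.43 TPM, each SD, n = 3) were lowest, and the ranges of Tpm2 and Myl9 overlapped.

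**Figure D1:**
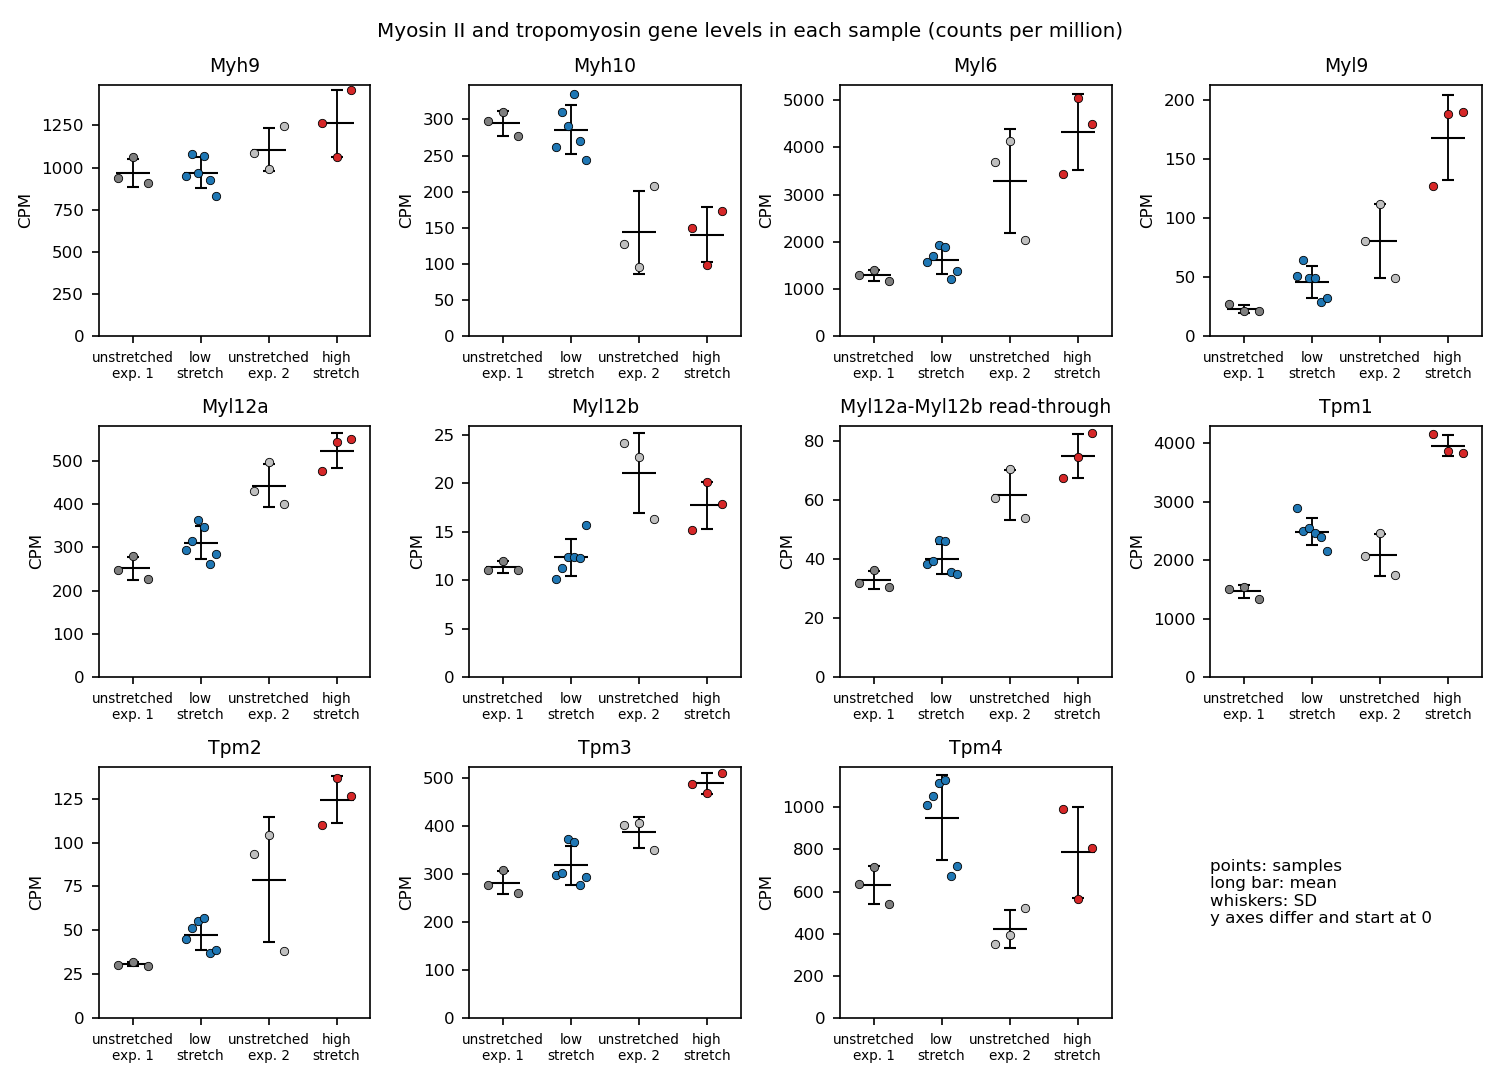
Gene level in CPM (y axis, starting at 0, a different scale in each panel) for the 11 identifiers in the 4 groups; points are samples, the long bar is the mean and the whiskers are the SD. Tpm1 lies between 2157 and 2890 CPM under low stretch and between 3838 and 4164 CPM under high stretch, above the unstretched samples of the same experiment, while Myh9 and Myh10 overlap in both experiments.

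Under low stretch Tpm1, Tpm2 and Myl9 rose, and no member fell. In the quasi-likelihood test of edgeR, adjusted by Benjamini-Hochberg over 21672 genes, 3 of the 11 identifiers passed, all upward, beside 5.45% of all genes tested in either direction, 1.85% upward and 3.6% downward. At an unadjusted p under 0.05 there were 6 of 11, beside 23.6% of all genes, and DESeq2 called 4 of 11, beside 13.1%. The median log2 fold change of the 11 was 0.28, against 0.01 over all genes. Under high stretch 0 of 11 passed, beside 3.47% of 18524 genes (1.31% upward, 2.16% downward), and 3 of 11 had an unadjusted p under 0.05, beside 14.6% of all genes. DESeq2 called 3 of 11 in that comparison, beside 7.58% of all genes. The median log2 fold change of the 11 was 0.33 under high stretch, against -0.02 over all genes. The groups did not overlap for 3 identifiers under low stretch, where 15.9% of all genes did not, and for 5 under high stretch, where 20.9% did not.

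**Figure D2:**
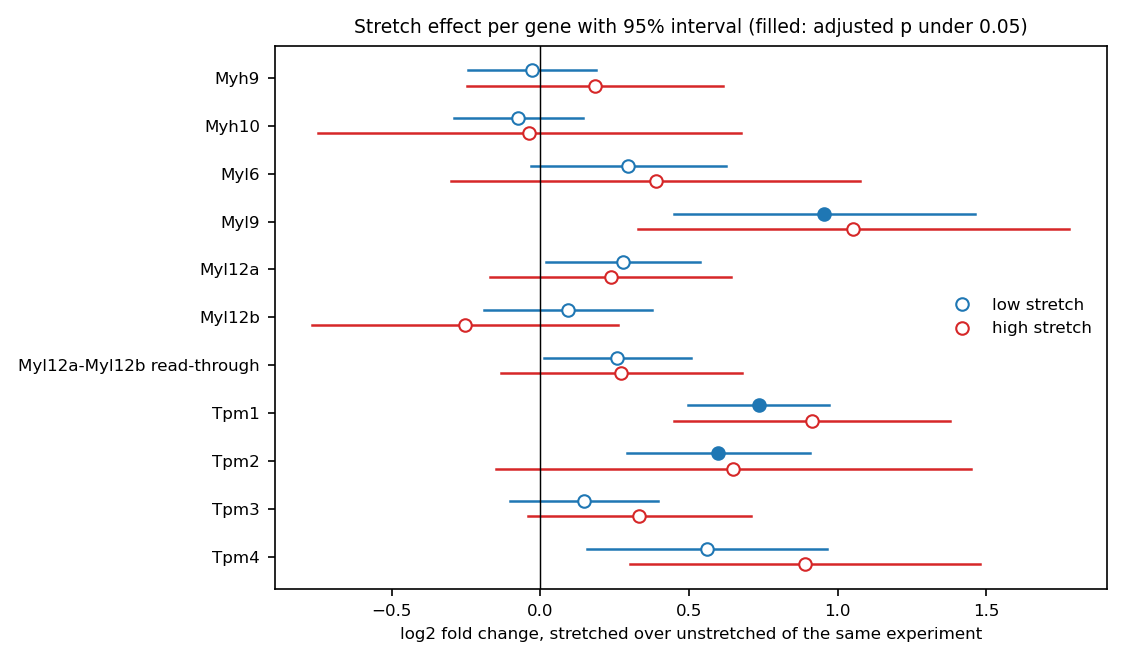
Log2 fold change of stretched over unstretched samples of the same experiment (x axis) for each identifier (y axis); points are edgeR estimates, lines are 95% intervals and filled points passed an adjusted p of 0.05. Filled points are found only for Myl9, Tpm1 and Tpm2 under low stretch, and the high-stretch intervals are the wider ones.

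No difference was detected for the heavy chains in either experiment. Myh9 encodes the heavy chain of myosin IIA, in which mutations cause an inherited disease that can involve the kidney (ENSMUSG00000022443, chr15:77760587-77842175, minus strand). It was measured at 937, 1064 and 906 CPM in the unstretched samples of experiment 1 and at a lowest, median and highest value of 832, 959 and 1078 CPM under low stretch. The stretched range enclosed the unstretched one, with a log2 fold change of -0.03 (95% interval -0.24 to 0.19, edgeR adjusted p = 0.888). In experiment 2 Myh9 was at 1084, 990 and 1244 CPM without stretch and at 1261, 1064 and 1461 CPM with high stretch. These ranges overlapped too (log2 fold change 0.18, 95% interval -0.25 to 0.62, edgeR adjusted p = 0.799).

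Myh10 encodes the heavy chain of myosin IIB (ENSMUSG00000020900, chr11:68691559-68816632, plus strand). Its level was 297, 310 and 277 CPM in the unstretched samples and 244, 281 and 336 CPM (lowest, median, highest) under low stretch. In experiment 2 it was 127, 96.3 and 208 CPM without stretch and 149, 99.3 and 173 CPM with it, and replicate 3 was the highest in both groups. The groups overlapped in both experiments. The log2 fold change was -0.07 under low stretch (95% interval -0.29 to 0.14, edgeR adjusted p = 0.688) and -0.04 under high stretch (95% interval -0.75 to 0.67, edgeR adjusted p = 0.986). Of the transcript level of both heavy chain genes together, Myh9 took 74.2% ± 0.882 (SD, n = 3) in unstretched and 74.9% ± 0.926 (SD, n = 6) in low-stretch cells. The corresponding shares in experiment 2 were 88.1% ± 3.34 and 89.1% ± 1.21 (SD, n = 3 each). Every sample of experiment 2 had a higher share of Myh9 than every sample of experiment 1.

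Of the light chains, Myl9 rose under low stretch. Its product is the regulatory light chain that predominates in smooth muscle (ENSMUSG00000067818, chr2:156775420-156781658, plus strand). Myl9 was counted at 27.2, 21.2 and 21.6 CPM in the unstretched samples and at 29.1, 49.4 and 64.8 CPM (lowest, median, highest) under low stretch. All 6 stretched samples lay above the unstretched ones, but the lowest, in the third plate run, only just. The mean rose from 23.3 ± 3.35 (SD, n = 3) to 46.1 ± 13.2 CPM (SD, n = 6), a 1.94-fold change (log2 fold change 0.96, SE 0.23, edgeR adjusted p = 0.0387). Within the 3 plate runs of experiment 1, the sets of neighbouring plate positions that held 1 unstretched sample each, the log2 ratio ranged from 0.52 to 1.22. Of the 9 fits that left out 1 sample, Myl9 passed in 2, without low-stretch replicate 5 (edgeR adjusted p = 0.0133) or 6 (0.0283), both of the third run. In the others the adjusted p reached up to 0.178, with log2 fold changes between 0.84 and 1.07 over all 9.

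Under high stretch Myl9 was at 127, 188 and 190 CPM, all above the 80.4, 112 and 49.3 CPM of the unstretched samples. The fold change was of like size, 2.07-fold (log2 fold change 1.05, SE 0.32), but it did not pass (edgeR adjusted p = 0.14). Without unstretched replicate 3, the library that stood apart, the log2 fold change of Myl9 was 0.81 (edgeR adjusted p = 0.0484), and without unstretched replicate 2 it was 1.39 (adjusted p = 0.0406). The difference between the high-stretch and low-stretch effects was 0.07 on the log2 scale (95% interval -0.77 to 0.91, edgeR adjusted p = 1).

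Among the regulatory light chain genes, Myl9 made up a small part that was larger in stretched cells. Its share of the summed transcript level of Myl9, Myl12a, Myl12b and the read-through was 1.87%, 1.35% and 1.64% in the unstretched samples of experiment 1 and 1.89%, 2.65% and 3.88% (lowest, median, highest) under low stretch. The groups came close but did not overlap (two-sided exact permutation test over samples, unadjusted p = 0.0238, the smallest that 6 against 3 samples can give). This test and those of all other shares ignored the plate runs. In experiment 2 the share was 2.52%, 3.2% and 2.1% without stretch and 4.55%, 5.31% and 5.75% with it, again without overlap (exact permutation p = 0.1, the smallest for 3 against 3).

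The Myl9 promoter is shown because Myl9 had the largest fold change of the members in both experiments. The 194 bases given are from RefSeq (GRCm38.p6), on the plus strand at chr2:156775214-156775407, and end before the start of the gene in GENCODE. Capitals mark a CArG box, the binding sequence of serum response factor, which controls many contractile genes.
Myl9 promoter: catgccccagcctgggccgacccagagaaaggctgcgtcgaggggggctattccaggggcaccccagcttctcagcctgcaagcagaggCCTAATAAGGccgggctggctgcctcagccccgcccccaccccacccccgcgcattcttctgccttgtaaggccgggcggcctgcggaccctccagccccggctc
Windows of 250 bases before to 50 bases after each annotated start were searched on both strands for the CArG box, and 2 of the 12 windows of the members held it: the one for Myl9, at position -161 from the start that this window is set on (chr2:156775464), and 1 of 2 for Myl6. It was present in 1.63% of all 32851 promoter windows. The motif CATTCC, known as a target of TEAD factors, was found in 3 member windows (Myl12a, Myh10 and Tpm1) and in 14.7% of all windows. No member window held both motifs, and a match describes these letters only.

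The essential light chain gene Myl6 did not pass in its total level (ENSMUSG00000090841, chr10:128490860-128494145, minus strand). It was counted at 1296, 1397 and 1172 CPM in the unstretched samples and at 1214, 1631 and 1939 CPM (lowest, median, highest) under low stretch, with overlap (log2 fold change 0.30, SE 0.15, edgeR adjusted p = 0.259). With the plate run as a term in the fit Myl6 passed (0.28, edgeR adjusted p = 0.0163). In experiment 2 it was at 3690, 4137 and 2033 CPM without stretch and at 3442, 5035 and 4487 CPM with it. The low value belonged to unstretched replicate 3, and the groups overlapped (log2 fold change 0.39, SE 0.30, edgeR adjusted p = 0.695). The log2 fold change was 0.15 without that library (edgeR adjusted p = 0.66) and 0.61 without unstretched replicate 2 (edgeR adjusted p = 0.38).

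The tails of Myl6 stood in different proportions in stretched and unstretched cells. Transcripts with the optional exon, whose ends are printed above, took 38.5%, 46.7% and 46.2% of the level of all Myl6 transcripts that span its place in the unstretched samples of experiment 1. Under low stretch they took 21.8%, 32% and 37% (lowest, median, highest). Every stretched sample was below every unstretched one, with a mean difference of -13.6 percentage points (exact permutation p = 0.0238, unadjusted). In experiment 2 the exon was included in 46.1%, 50.4% and 54.4% without stretch and in 27.9%, 36.3% and 34% with high stretch. These groups did not overlap either, and the difference was -17.6 points (exact permutation p = 0.1, the smallest this design allows). Inclusion was lower in all 3 plate runs of each experiment, with differences of -16.2 to -11 points in experiment 1 and of -20.4 to -14.1 points in experiment 2.

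The form without the exon had the higher mean level in stretched cells. Its summed level was 2430 ± 275 TPM (SD, n = 3) in unstretched and 3572 ± 643 TPM (SD, n = 6) in low-stretch cells, and 3788 ± 966 TPM against 6516 ± 194 TPM (SD, n = 3 each) in experiment 2. The form with the exon was at 1895 ± 270 TPM (SD, n = 3) against 1544 ± 435 TPM (SD, n = 6), and at 3768 ± 545 TPM against 3205 ± 688 TPM (SD, n = 3 each). The form without the exon separated the groups in experiment 2, where its unstretched samples reached 4469 TPM and its lowest stretched sample was at 6292 TPM, and overlapped in experiment 1 (up to 2662 TPM unstretched, from 2531 TPM stretched). The form with the exon overlapped in both. In the limma test of transcript usage over 27672 transcripts, the form without the exon (ENSMUST00000164181) had a change of 0.83 in its log2 ratio to the other Myl6 transcripts under low stretch (SE 0.23, adjusted p = 0.317). Under high stretch that change was 1.01 (SE 0.20, limma adjusted p = 0.304).

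**Figure D3:**
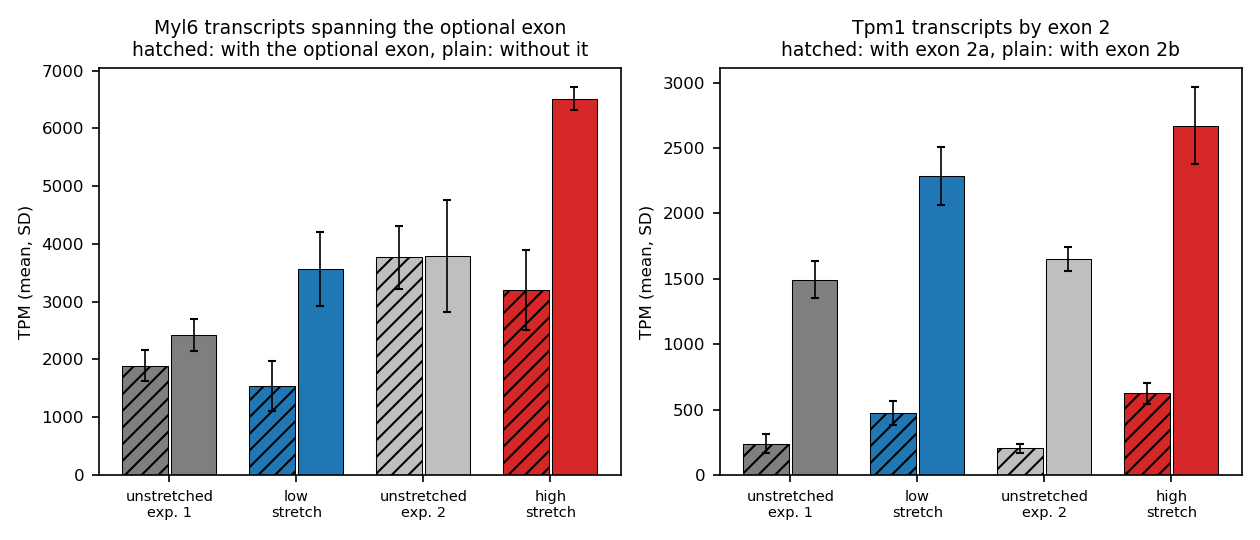
Summed transcript level in TPM (y axis, from 0) of Myl6 transcripts with and without the optional exon (left) and of Tpm1 transcripts with exon 2a and exon 2b (right); bars are group means and whiskers the SD. The Myl6 form without the exon (plain bars) goes from 2430 to 3572 TPM and from 3788 to 6516 TPM with stretch, and the Tpm1 form with exon 2a (hatched) from 240 to 473 and from 203 to 624 TPM.

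Myl12a and Myl12b encode nearly identical regulatory light chains, lie next to each other on chromosome 17 and share exons with the read-through locus (ENSMUSG00000117098, chr17:70974119-71002208, minus strand), so the division of reads among them is uncertain. Myl12a (ENSMUSG00000024048, chr17:70993656-71002878, minus strand) was at 248, 280 and 226 CPM in unstretched and at 261, 305 and 362 CPM (lowest, median, highest) in low-stretch samples. The read-through was at 31.9, 36.4 and 30.6 CPM and at 34.9, 39 and 46.7 CPM. Both overlapped (Myl12a log2 fold change 0.28, SE 0.12, edgeR adjusted p = 0.181; read-through 0.26, SE 0.11, edgeR adjusted p = 0.194). With the plate run as a term both passed (0.28, edgeR adjusted p = 0.0045, and 0.26, edgeR adjusted p = 0.00281). In experiment 2 Myl12a was at 430, 498 and 400 CPM without and 477, 544 and 551 CPM with stretch, and the read-through at 60.9, 70.6 and 53.9 against 67.7, 74.7 and 82.8 CPM. Both overlapped again (Myl12a log2 fold change 0.24, edgeR adjusted p = 0.678; read-through 0.27, edgeR adjusted p = 0.609).

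Myl12b itself (ENSMUSG00000034868, chr17:70973133-70990890, minus strand) had few counts of its own. It was at 11.1, 12 and 11 CPM in unstretched and at 10.1, 12.3 and 15.7 CPM (lowest, median, highest) in low-stretch samples, with overlap (log2 fold change 0.09, edgeR adjusted p = 0.695; -0.08 on the TPM scale). In experiment 2 it was at 24.1, 22.7 and 16.3 CPM without and 15.2, 20.1 and 17.9 CPM with stretch (log2 fold change -0.25, edgeR adjusted p = 0.752). Most of its transcript level, 63.1% ± 0.76 (SD, n = 3) in the unstretched cells of experiment 1, was assigned to transcripts not annotated as protein-coding, chiefly 1 with a retained intron.

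Tpm1, which makes the main long tropomyosins of stress fibres, had the lowest p-value of the members in both experiments (ENSMUSG00000032366, chr9:67022590-67049406, minus strand). It was counted at 1518, 1552 and 1342 CPM in the unstretched samples of experiment 1 and at 2157, 2482 and 2890 CPM (lowest, median, highest) under low stretch. All 6 stretched samples were well above the 3 unstretched ones. The mean rose from 1471 ± 113 (SD, n = 3) to 2492 ± 239 CPM (SD, n = 6), 1.66-fold (log2 fold change 0.73, SE 0.11, edgeR adjusted p = 0.00628). It passed in all 9 fits that left out 1 sample, and the log2 ratio within the plate runs was 0.69 to 0.83.

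Under high stretch Tpm1 was at 4164, 3875 and 3838 CPM, above the 2079, 2465 and 1741 CPM of the unstretched samples. The groups lay far apart, at means of 3959 ± 179 and 2095 ± 362 CPM (SD, n = 3 each), 1.88-fold, but the adjusted p was just over the threshold (log2 fold change 0.91, SE 0.20, edgeR adjusted p = 0.0523). The edgeR adjusted p was 0.0141 without unstretched replicate 3 (log2 fold change 0.81) and 0.0287 without unstretched replicate 2 (1.07), and DESeq2 gave 0.00171 with all samples. The ratio within the plate runs of experiment 2 was 0.65 to 1.14 on the log2 scale. The high-stretch effect exceeded the low-stretch effect by 0.15 (95% interval -0.27 to 0.57, edgeR adjusted p = 1), so a difference between the experiments was not detected.

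The choice between exons 2a and 2b of Tpm1 passed no test made within 1 experiment. Of the level of transcripts with exon 2a or 2b, those with exon 2a took 15.9%, 14.6% and 10.4% in the unstretched samples and 15.2%, 16.9% and 19.4% (lowest, median, highest) under low stretch. These groups overlapped (difference 3.43 points, exact permutation p = 0.0952). Without unstretched replicate 3, the lowest sample, the difference was 1.81 points (exact permutation p = 0.286). In experiment 2 exon 2a took 10.6%, 12.2% and 10% without stretch and 19.3%, 19% and 18.5% with high stretch. Here the stretched samples lay close together and far above the unstretched ones (difference 8 points, exact permutation p = 0.1, the smallest this design allows). The difference was above 0 in all 6 plate runs. In level, exon 2a transcripts were at 240 ± 70.3 TPM (SD, n = 3) against 473 ± 88.6 TPM (SD, n = 6), and at 203 ± 34.8 against 624 ± 81.4 TPM (SD, n = 3 each). Exon 2b transcripts, the larger pool, were at 1494 ± 141 TPM (SD, n = 3) against 2285 ± 223 TPM (SD, n = 6), and at 1650 ± 91.2 against 2669 ± 294 TPM (SD, n = 3 each). The main transcript with exon 2a (ENSMUST00000113705) did not pass in the usage test, with a change of its log2 ratio of 0.97 under high stretch (SE 0.16, limma adjusted p = 0.225) and 0.45 under low stretch (SE 0.18, limma adjusted p = 0.439). In 1 limma fit of all 15 samples it passed under high stretch (adjusted p = 0.0286).

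Tpm1 can also start at an internal promoter, which gives short proteins of 248 instead of 284 residues. These short forms took 5.41%, 4.49% and 6.54% of the coding Tpm1 level in the unstretched samples and 1.92%, 2.25% and 3.16% (lowest, median, highest) under low stretch. The groups did not overlap (difference -3.15 points, exact permutation p = 0.0238, unadjusted). In experiment 2 the share was 5.73%, 4.21% and 5.86% without stretch and 1.79%, 1.65% and 1.46% with it (difference -3.63 points, exact permutation p = 0.1). Their summed level was 77 to 98.7 TPM in unstretched and 46.7 to 72.4 TPM in low-stretch samples, and 65.1 to 95.3 TPM against 38.2 to 59 TPM in experiment 2, without overlap in either. The long forms went the other way, with 1564 ± 132 TPM (SD, n = 3) against 2504 ± 246 TPM (SD, n = 6) and 1455 ± 91.3 against 2741 ± 429 TPM (SD, n = 3 each). No short form passed in the limma usage fit without a filter on the fraction. The lowest adjusted p was that of ENSMUST00000113695, 0.12 under low stretch (log2 ratio change -1.71) and 0.189 under high stretch (-1.66). The only short form with a rise was ENSMUST00000113689, by 0.48 under high stretch (limma adjusted p = 0.867). Of the level of Tpm1 transcripts with exon 6a or 6b, those with exon 6a took 20.9% ± 2.64 (SD, n = 3) in unstretched cells. In low-stretch cells they took 20.6% ± 2.89 (SD, n = 6), with overlap (exact permutation p = 0.833). The corresponding values of experiment 2 were 17.4% ± 1.56 and 19.8% ± 0.852 (SD, n = 3 each), without overlap (exact permutation p = 0.1).

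**Figure D4:**
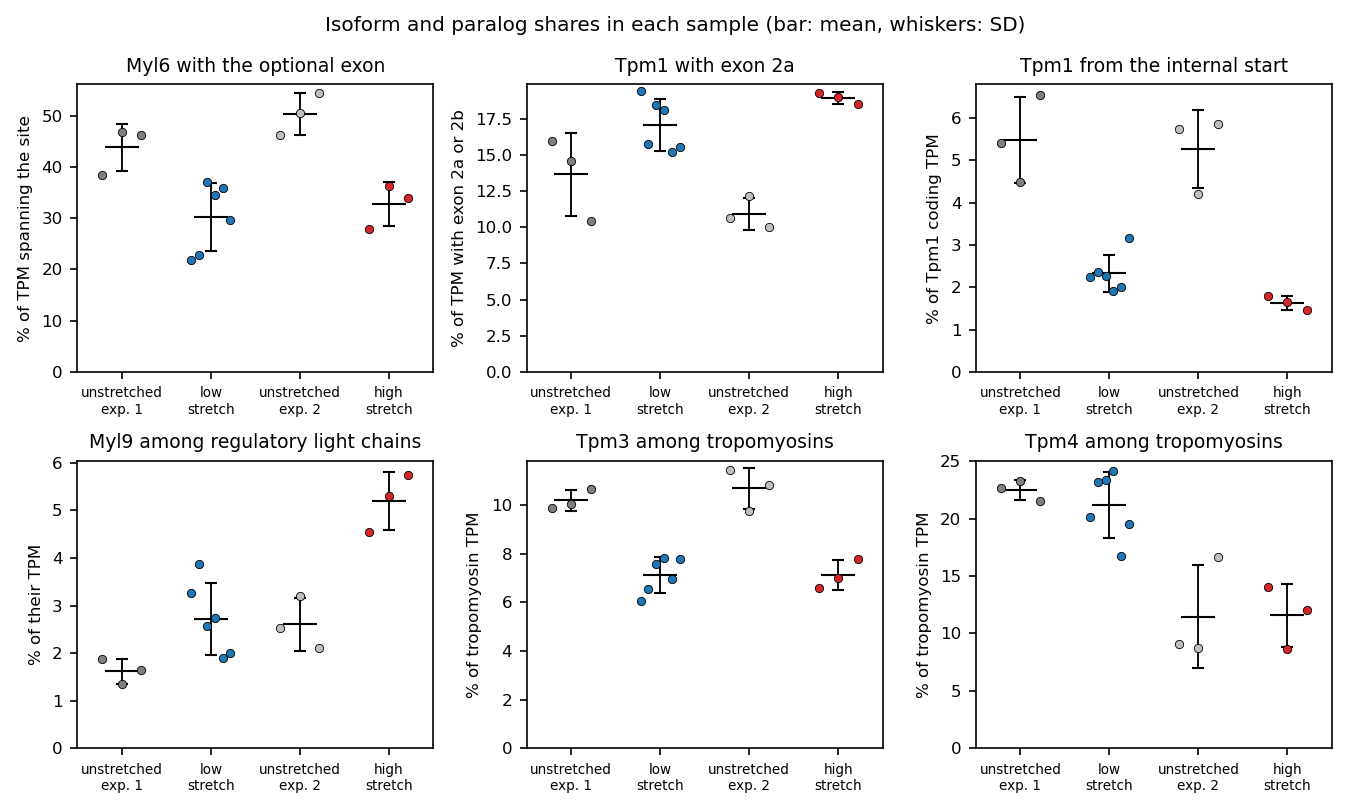
Shares of transcript level in percent (y axes, from 0) by group; points are samples, the bar is the mean and the whiskers are the SD. The Myl6 exon, the internal start of Tpm1 and the Tpm3 share are lower in every stretched sample than in any unstretched sample of the same experiment, the Myl9 share is higher, and exon 2a of Tpm1 is separated only in experiment 2, at 18.5% to 19.3% against 10% to 12.2%.

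Tpm2, another long tropomyosin that is abundant in muscle, rose under low stretch (ENSMUSG00000028464, chr4:43514711-43523765, minus strand). It was at 30.2, 32.1 and 30 CPM in unstretched and at 36.9, 48.4 and 56.8 CPM (lowest, median, highest) in low-stretch samples, without overlap. The change was 1.51-fold (log2 fold change 0.60, SE 0.14, edgeR adjusted p = 0.0349), and the log2 ratio within plate runs was 0.34 to 0.81. It passed in 2 of the 9 fits that left out 1 sample, without low-stretch replicate 5 (edgeR adjusted p = 0.0142) or 6 (0.0285), and the adjusted p of the others reached up to 0.161. Under high stretch it was at 110, 137 and 126 CPM, above 93.6, 104 and 38.5 CPM without stretch. The low value was again unstretched replicate 3, and the log2 fold change of 0.65 (SE 0.35, edgeR adjusted p = 0.479) was 0.34 without that library (adjusted p = 0.268). Of the level of Tpm2 transcripts with exon 6a or 6b, those with exon 6a took at least 97.59% in every sample.

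Tpm4, whose products are short tropomyosins of nonmuscle cells, did not pass under low stretch in the main edgeR fit (ENSMUSG00000031799, chr8:72134975-72153142, plus strand). It passed there with DESeq2, with the plate run as a term or without 1 library. It was at 635, 718 and 541 CPM in unstretched and at 675, 1032 and 1130 CPM (lowest, median, highest) in low-stretch samples. Replicate 5 lay inside the unstretched range and replicate 6 of the same plate run just above it, and the change was 1.48-fold (log2 fold change 0.56, SE 0.18, edgeR adjusted p = 0.097). Without replicate 5 the log2 fold change was 0.64 and Tpm4 passed (edgeR adjusted p = 0.0378). It also passed with all samples and the plate run as a term (0.54, edgeR adjusted p = 0.00041). In experiment 2 it was at 352, 393 and 524 CPM without stretch and at 990, 563 and 805 CPM with it. These groups did not overlap, and the change was 1.85-fold (log2 fold change 0.89, SE 0.26, edgeR adjusted p = 0.123). Without unstretched replicate 3 the log2 fold change was 1.09 (edgeR adjusted p = 0.0169).

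Tpm3, which supplies both long and short nonmuscle forms, had the smallest fold changes of the tropomyosins in both experiments (ENSMUSG00000027940, chr3:90072649-90100902, plus strand). It was at 277, 309 and 262 CPM in unstretched and at 279, 301 and 374 CPM (lowest, median, highest) in low-stretch samples, with overlap (log2 fold change 0.15, SE 0.11, edgeR adjusted p = 0.457). In experiment 2 it was at 403, 408 and 351 CPM without and 488, 469 and 512 CPM with stretch, without overlap (log2 fold change 0.33, SE 0.16, edgeR adjusted p = 0.423). Of the level of Tpm3 transcripts with exon 6a or 6b, those with exon 6a took between 95.5% and 97.6% in every sample. The mean was 96.2% ± 0.594 (SD, n = 3) against 97.3% ± 0.375 (SD, n = 6, exact permutation p = 0.0238) in experiment 1. In experiment 2 it was 96.4% ± 0.217 against 97.2% ± 0.218 (SD, n = 3 each, exact permutation p = 0.1), and the groups did not overlap in either experiment.

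Within the tropomyosin pool, Tpm3 had a lower share in stretched cells, while its own level was not lower. That level was 292 ± 23.6 TPM (SD, n = 3) in unstretched against 294 ± 21.3 TPM (SD, n = 6) in low-stretch cells. In experiment 2 the level was 281 ± 15.9 against 308 ± 32.7 TPM (SD, n = 3 each), and the groups overlapped in both experiments. Tpm3 took 9.87%, 10.1% and 10.7% of the summed level of the 4 genes in unstretched and 6.04%, 7.27% and 7.85% (lowest, median, highest) in low-stretch samples (exact permutation p = 0.0238, unadjusted). In experiment 2 its share was 11.5%, 9.77% and 10.8% without and 6.58%, 7.02% and 7.77% with stretch (exact permutation p = 0.1). In this share, stretched and unstretched samples did not overlap in either experiment. For Tpm1 the share was 65.3% ± 0.452 (SD, n = 3) in unstretched and 69.7% ± 3.38 (SD, n = 6) in low-stretch cells, without overlap (exact permutation p = 0.0238, and 0.0952 over coding transcripts only). In experiment 2 it was 74.1% ± 3.54 against 77.8% ± 2.31 (SD, n = 3 each), with overlap (exact permutation p = 0.3). All short coding tropomyosins together took 37.9% ± 1.02 (SD, n = 3) against 31.6% ± 3.23 (SD, n = 6), without overlap (exact permutation p = 0.0238), and 28.1% ± 5.02 against 22.2% ± 2.55 (SD, n = 3 each), with overlap (exact permutation p = 0.2). Their summed level was not lower with stretch. It was 990 ± 104 against 1200 ± 176 TPM (SD, n = 3 and 6) and 615 ± 169 against 836 ± 230 TPM (SD, n = 3 each), with overlap in both. The long coding forms had means of 1622 against 2586 TPM and of 1553 against 2891 TPM.

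In all, 23 shares were compared in each experiment. Under low stretch 8 had the smallest p the design allows and no overlap, and under high stretch 9 did not overlap and none could reach 0.05. Over all transcripts tested for usage, shares did not overlap for 5.44% under low and 14.6% under high stretch. That background is not a like measure, since it takes single transcripts within their own gene. The 23 shares are mostly sums of transcripts, and some are shares among several genes that move with gene level. Several of the 23 also count the same transcripts, so no excess can be read from these counts. In the limma usage test 0 of 18 member transcripts passed under low stretch, where 4 of 27672 did (0.0145%), and 0 of 19 under high stretch, where 0 of 23374 did (0.0%). At an unadjusted p under 0.05 the limma counts were 6 of 18 and 3 of 19, beside 10% and 8.15% of all transcripts.

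**Figure D5:**
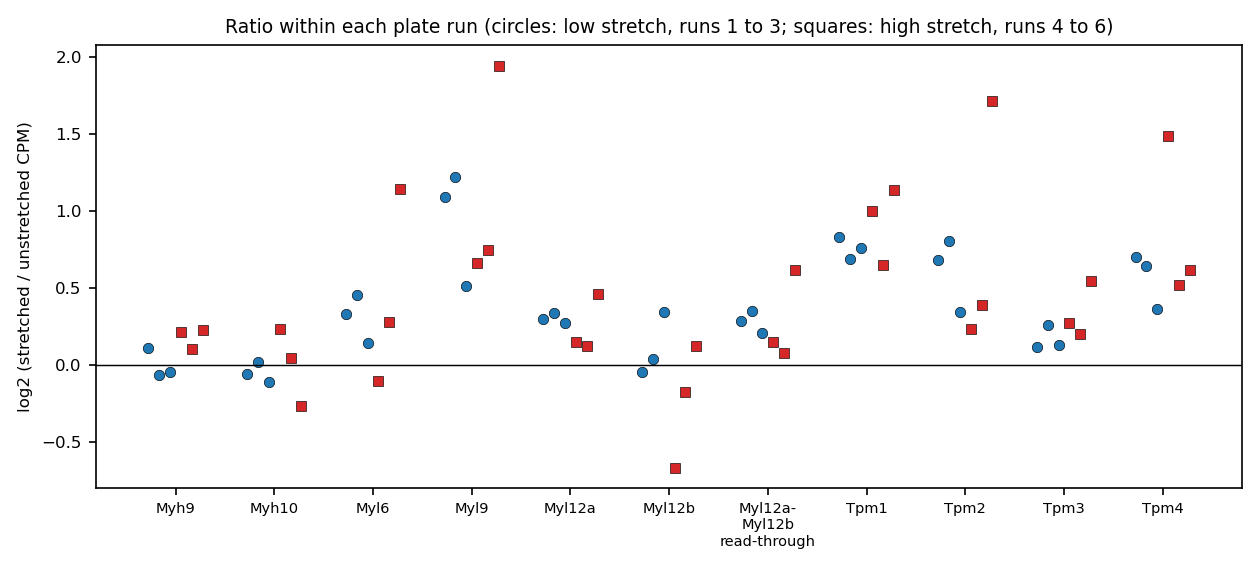
Log2 ratio of the mean stretched to the unstretched CPM within each plate run (y axis) for each identifier (x axis); circles are the 3 runs of low stretch and squares the 3 runs of high stretch. Tpm1, Tpm2, Tpm4, Myl9, Myl12a, the read-through and Tpm3 are above 0 in all 6 runs (on the CPM scale), and the run that held unstretched replicate 3 of experiment 2 gives the highest ratio for Myl9 (1.95) and Tpm2 (1.71).

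Samples of the same plate run in experiment 1 deviated together across genes, with a correlation of 0.327 to 0.57. The permutation tests of shares mixed samples across runs, so their p-values do not take this into account. With the run as a term in the edgeR fit, 7 of 11 identifiers passed under low stretch, adding Tpm4, Myl6, Myl12a and the read-through, beside 28.2% of all genes. In experiment 2 the correlation within runs was -0.163 to 0.449, and with the run as a term 4 of 11 passed under high stretch, beside 8.35% of all genes. Those 4 were Myl9 (log2 fold change 1.11, edgeR adjusted p = 0.00118), Tpm1 (0.93, adjusted p = 0.0135), Tpm4 (0.87, adjusted p = 0.0205) and Tpm2 (0.77, adjusted p = 0.0443).

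The experiments differed before any stretch in most genes, and these genes were among them. Against the unstretched cells of experiment 1, those of experiment 2 had more Myl9 (log2 difference 1.79), Tpm2 (1.36), Myl6 (1.35), read-through (0.89), Myl12b (0.88) and Myl12a (0.80), and less Myh10 (-1.06) and Tpm4 (-0.60). That made 8 of 11 called by edgeR, 6 upward and 2 downward, beside 62.5% of 20707 genes (29.7% upward, 32.7% downward). The groups did not overlap for 10 of 11, beside 72.5% of all genes, so such differences were not particular to the members. Scaling matters here: over all genes the median shift from the TMM to the TPM scale was -0.58, against -0.12 for low and -0.08 for high stretch. On the TPM scale 5 of 11 passed by limma, beside 57.7% of all genes, the 8 directions held, and those of Myh9 (0.17) and Tpm3 (0.44), which had not passed, turned to -0.41 and -0.06.

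No difference between the effects in the experiments was detected: 0 of 11 passed in the edgeR contrast of high-stretch and low-stretch effects, beside 0.0% of 22015 genes, and 0 of 11 had an unadjusted p under 0.05, beside 2.48% of all genes, so the members' counts lie near those of all genes. DESeq2 also called 0 of 11, beside 0.0% of all genes. The 95% intervals of these differences were widest for Myl9 (-0.77 to 0.91) and narrowest for Tpm3 (-0.23 to 0.54). In transcript usage, limma called 0 of 19 member transcripts in this contrast, where 0.0339% of 26524 passed, and 1 of 19 had an unadjusted p under 0.05, beside 4.82% of all. Amplitude and experiment were the same split of the samples and cannot be told apart.

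Of the genes that act on myosin II, the share that passed lay near that of all genes (5.45% and 3.47%). Of 29 tested, 1 rose under low stretch: Rhoc, a small GTPase, at 131 ± 18.9 (SD, n = 3) against 213 ± 32.2 CPM (SD, n = 6; log2 fold change 0.67, edgeR adjusted p = 0.0227). Under high stretch 1 rose and 1 fell. Mylk, a kinase that phosphorylates regulatory light chains, fell from 156 ± 49.2 to 64.4 ± 3.04 CPM (SD, n = 3 each; log2 fold change -1.28, edgeR adjusted p = 0.0284). S100a4, a calcium sensor that binds the Myh9 product, rose to 2.1 ± 0.086 CPM from 0.746 ± 0.194 (SD, n = 3 each; edgeR adjusted p = 0.0258). At an unadjusted p under 0.05 there were 12 of 29 under low and 4 of 29 under high stretch, beside 23.6% and 14.6% of all genes, and DESeq2 called 3 in each. The median of the list was 0.08 under low and 0.03 under high stretch, against 0.01 and -0.02 over all genes.

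Actin genes and other proteins that share filaments with tropomyosin had medians of 0.33 under low and 0.46 under high stretch. Of 26 tested under low stretch, 2 rose, Pdlim7 (log2 fold change 0.81, edgeR adjusted p = 0.0166) and the actin-severing Cfl2 (0.54, adjusted p = 0.00314), and Tmod4, at means of 1.93 and 1.25 CPM, fell by 0.65 (adjusted p = 0.0338). Of 25 tested under high stretch, Tagln2 rose (log2 fold change 1.47, edgeR adjusted p = 0.0472), as did Actg2, and Lmod3 fell, the last 2 below 1 CPM. Over all genes 5.45% and 3.47% were called in these comparisons. At an unadjusted p under 0.05 there were 13 of 26 under low and 12 of 25 under high stretch, beside 23.6% and 14.6% of all genes, and DESeq2 called 9 and 4, beside 13.1% and 7.58%. Acta2, smooth muscle actin, was at 1523 ± 375 (SD, n = 3) against 2832 ± 1046 CPM (SD, n = 6) and at 4546 ± 2202 against 9014 ± 2108 CPM (SD, n = 3 each), with edgeR adjusted p-values of 0.136 and 0.269. The summed level of 8 smooth muscle and mesangial markers, most of it Acta2, was 1604 to 2478 CPM in unstretched and 1986 to 4613 CPM in low-stretch samples, and 3346 to 8405 against 7631 to 11921 CPM in experiment 2. Both ends of its range were higher with stretch, but stretched and unstretched ranges overlapped in each experiment. Its relation to Myl9, Tpm1 and Tpm2, and its part in their rise, was not tested.

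Of the other myosin II chains, 9 of 20 were tested and edgeR called 0 in either comparison. At an unadjusted p under 0.05 there were 0 of 9 under low and 4 of 9 under high stretch (DESeq2 called 0 and 1). The medians of those tested were 0.37 and -0.56, against 0.01 and -0.02 over all genes. Over all genes edgeR called 5.45% and 3.47%, with 23.6% and 14.6% at an unadjusted p under 0.05, and DESeq2 called 13.1% and 7.58%. Among 23 measured factors that act with serum response factor or on alternative exons of contractile genes, 17 were tested. Under low stretch edgeR called 0, with 4 at an unadjusted p under 0.05 and 1 called by DESeq2. Under high stretch 1 rose, Rbpms2 (log2 fold change 0.85, edgeR adjusted p = 0.0445), an RNA-binding protein of smooth muscle. In that comparison 2 of 17 had an unadjusted p under 0.05 in edgeR, and DESeq2 called 2. Of the unconventional myosins, 20 were tested under low and 17 under high stretch. Myo16 fell in both comparisons, from means of at most 0.127 CPM, and edgeR called no other of them. At an unadjusted p under 0.05 there were 10 of 20 and 5 of 17, beside 23.6% and 14.6% of all genes. DESeq2 called 4 and 1, beside 13.1% and 7.58%. Markers of dividing cells summed to 632 to 980 CPM in unstretched and 573 to 919 CPM in low-stretch samples, and to 439 to 608 against 377 to 539 CPM in experiment 2.

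The genes whose level followed a member most closely were named by the highest Pearson correlation over the 15 samples, after subtracting the unstretched mean of each experiment, among 9602 genes with at least 10 CPM. For Tpm1 they were Brap (r = 0.986), Sorcs2 (0.982) and Pmepa1 (0.977). For Myl9 they were Csrp1 (0.970), which encodes an actin-associated LIM protein, Pcbp2 (0.965) and Tmem63a (0.964). For Tpm2 they were Carm1 (0.979), Usp4 (0.971) and Gak (0.968), for Myl6 Map7d1 (0.984) and Tbrg4 (0.977), and for Myh9 Larp1 (0.941), the pseudogene 5830417I10Rik (0.927) and Mlxip (0.909). Among the members, the closest pair apart from Myl12a and the read-through was Myl6 with Tpm2 (0.95), and Myh9 with Myh10 had 0.79. These samples share plate runs and stretch, so the correlations are descriptions only.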

How the data were processed

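RNA of 15 samples was sequenced as stranded paired-end poly(A) libraries, per the labels' protocols. The authors deposited raw gene counts and transcript TPM, and the submitters' processing notes name STAR 2.7.5c, featureCounts of Subread 2.0.0, DESeq2 1.38.3, Salmon 1.9.0 and the build mm39. The files carry no coordinates. Symbols, transcript models and printed positions come from GENCODE M21 (GRCm38), which matched 52135 of 55416 genes and 137189 of 140789 transcripts, and promoter windows from RefSeq (GRCm38.p6). The members and gene lists were chosen with earlier results of these data known.

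For gene counts, edgeR 4.0.16 was used under R 4.3.3 (TMM, filterByExpr, quasi-likelihood F test, Benjamini-Hochberg adjustment at 0.05), within 1 experiment for each stretch comparison and over the 6 unstretched samples for the comparison of experiments. The contrast of both effects used all 15 samples. SEs were taken as |log2 fold change| / sqrt(F). Transcript usage was tested with limma 3.58.1 (trend) on the log2 ratio of its TPM to that of all other transcripts of the gene (0.1 added to both), for genes of at least 1 TPM and mean fractions of 0.05 to 0.95. Exon and paralog shares were sums of transcript TPM, compared with two-sided exact permutation tests over samples, without regard to plate run. The edgeR gene test and the limma usage test were tried on simulated data, and the permutation tests were not. Alternatives were DESeq2 1.42.0, RLE factors, other filters and pseudocounts, 1 fit of all samples, gene TPM with limma, coding transcripts only, blocks for plate run or replicate number, and leaving out 1 sample at a time.

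Named transcripts were, per member, the one with the highest mean share and the one with the largest change in each experiment, and any that passed, among those with a mean share of at least 5% in a group. From each gene list, at most 5 passing genes per direction were named. Replicate numbers of experiment 1 did not pair samples (mean correlation -0.0713, from -0.44 to 0.365), and in experiment 2, where they equal the plate runs, the correlation ran from -0.163 to 0.449. Some genes that these rules would name are not reported here.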

Additional observations from a re-analysis of the deposited data

Results flagged for a closer look

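In 34 series of 6 low-stretch values (levels and shares of the members), 2 held a sample whose gap to its nearest neighbour, as a share of the range, exceeded Dixon's 95% limit. Chance alone gives such a gap in about 1 in 20 series. The share of Tpm1 from the internal start was 3.16% in low-stretch replicate 6, above the other 5 low-stretch samples and below every unstretched sample. The share of Myl12b transcripts not annotated as protein-coding was 65.3% in low-stretch replicate 1, above the other 5.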

How the results depend on the processing

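Counts of calls moved with the processing, and the cause was not tested. Under low stretch, edgeR called 1181 genes, against 2837 with DESeq2 and 640 in 1 fit of all 15 samples, and 220 to 1630 with 1 sample left out. The members called were 3, against 1 in 1 fit of all samples and 1 to 4 with 1 sample left out. Under high stretch 643 genes were called, against 1403 with DESeq2, 1050 without a filter, 414 at a mean count of at least 100, 1488 in 1 fit of all samples and 14 to 1421 with 1 sample left out. The members called were 0, against 3 with DESeq2, 3 without a filter, 2 in 1 fit of all samples, 2 on the TPM scale and 0 to 3 with 1 sample left out. Between the unstretched groups 8 members passed, against 5 on the TPM scale and 7 to 10 with 1 sample left out, and the genes called ran from 9312 to 15698. Transcripts called in the usage test under low stretch were 4, against 1 at a pseudocount of 0.01 TPM, 79 at 1 TPM, 91 without a filter on the fraction and 1 to 8 with 1 sample left out. Under high stretch they were 0, against 44 at 1 TPM, 7 without that filter, 254 in 1 fit of all samples (1 of a member, the Tpm1 transcript ENSMUST00000113705) and 0 to 10 with 1 sample left out.

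A replicate block was tried although numbers do not pair the samples of experiment 1, where it could use only replicates 1 to 3 of each group. With it, 490 genes and 0 transcripts passed under low stretch, and with a plate run block 6106 genes, 7 members and 54 transcripts. In experiment 2, where number and run are the same, the replicate block and the plate run block gave 1546 genes and 4 members. With the plate run block 3 genes differed between the effects. Directions turned for Myl12b (-0.045) and Myh9 (0.017) under low stretch and for the Tpm1 transcript ENSMUST00000113707 (-0.041) with the replicate block, for Myh10 under high stretch (0.00036) with either block, and for the difference between the effects for Myl9 (-0.12, replicate block) and the read-through (0.00025, plate run block).

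Without a block, directions turned for Myl12b under low stretch on the TPM scale (-0.085), for Myh9 (-0.41) and Tpm3 (-0.056) between the unstretched groups on that scale, and for the difference between the effects for Myh10 (-0.023) and Tpm2 (-0.0037) with DESeq2. None of these had passed. With 1 sample left out, values ran from -0.082 to 0.061 for Myh9 under low stretch and from -0.23 to 0.34 for Myh10 under high stretch. In usage under low stretch they ran from -0.027 to 0.072 for ENSMUST00000102611 (Myh10) and from -0.12 to 0.16 for ENSMUST00000113707. Over coding transcripts only, the Tpm1 share of tropomyosins differed by 4.38 points under low stretch (exact permutation p = 0.0952) and the Myl12b share of regulatory light chains by -0.62 points under high stretch. The share of Myl12b transcripts not annotated as protein-coding differed by -1.07 to -0.092 points under low stretch with 1 sample left out. With 3 against 3 samples no share can reach 0.05.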

Other observations

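Of 10 podocyte markers, 8 were tested under low and 7 under high stretch. Nes, which encodes the intermediate filament protein nestin, rose in both, from means of 53.1 to 106 CPM under low stretch (log2 fold change 0.97, edgeR adjusted p = 0.00506) and from 37.2 to 103 CPM under high stretch (1.47, edgeR adjusted p = 0.0175). Wt1, a transcription factor of podocytes, fell under high stretch from 2.81 to 0.548 CPM (log2 fold change -2.36, edgeR adjusted p = 0.0311), and was at 5.01 against 2.29 CPM in experiment 1 (edgeR adjusted p = 0.0688). Synpo, an actin-binding protein of podocytes and the most abundant marker of the list, was at 316 against 370 CPM and at 653 against 660 CPM (edgeR adjusted p = 0.545 and 0.994).

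Of the smooth muscle and mesangial markers, Pdgfrb, a receptor of mesangial cells, fell under low stretch from 86.4 to 59.7 CPM (log2 fold change -0.56, edgeR adjusted p = 0.0199). Of the tubule markers Lrp2, an endocytic receptor, fell under low stretch from 981 to 637 CPM (log2 fold change -0.65, edgeR adjusted p = 0.0227). Under high stretch edgeR called 0 of both lists, with 1 and 0 at an unadjusted p under 0.05, and DESeq2 called 0. Of striated muscle, endothelial, leukocyte and dividing cell markers, edgeR called 0 in either comparison. Of these lists 4, 2, 2 and 4 markers were tested under low stretch, and 3, 1, 1 and 4 under high stretch. Their counts at an unadjusted p under 0.05 were 0 each under low stretch, and 1, 1, 1 and 0 under high stretch, and DESeq2 called 1 leukocyte marker under high stretch and 0 otherwise. Over all genes 23.6% and 14.6% had an unadjusted p under 0.05 in edgeR, and DESeq2 called 13.1% and 7.58%.

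Myh6 and Myh7, heavy chains of heart muscle, were looked at after their values were seen. In the unstretched samples of experiment 2, Myh6 was at 11.7, 3.15 and 0.238 CPM and Myh7 at 9.8, 0.741 and 0.457 CPM, so that replicate 1 was highest and replicate 3 lowest for both.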
